A study of Caenorhabditis elegans with 2 samples.

Results

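The genes of the DREAM complex of Caenorhabditis elegans were examined for regions bound by ZTF-4, a protein named for its zinc finger domain. The 8 genes, lin-54, lin-9, lin-37, lin-52, lin-53, lin-35, efl-1 and dpl-1, were chosen by their known membership of the complex, with the strong region near lin-54 already known, and are 8 of 19985 protein-coding genes. The values below therefore describe the genes and are not tested. For each gene, every summit (the base of strongest enrichment in a region) inside the gene or up to 1 kb upstream of its annotated 5' end was taken.

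The data were ChIP-seq peak lists from whole L3 larvae of both sexes, the third larval stage, of strain OP322. This strain carries the integrated transgene wgIs322, which expresses eGFP-tagged ZTF-4, in an unc-119(ed3) mutant background. The 2 biological replicates formed 1 group, so no condition could be compared. Which promoter drives the transgene is not stated in the labels, and no untagged strain was analysed here. The candidate lists held 29249 regions for replicate 1, 30000 for replicate 2 and 30000 for both replicates called as 1 (pooled). The 704 regions kept by the irreproducible discovery rate (IDR), which measures agreement between replicates, are called IDR peaks. They were the 704 pooled regions of highest signal, the authors' own measure of enrichment. Signal was ranked within each list, with rank 1 the highest, since its scale may differ between lists. Read depth is unknown. In whole larvae, strong binding in few cells and weak binding in many cannot be told apart.

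DREAM couples a retinoblastoma-family pocket protein and an E2F-DP heterodimer to a core called MuvB, and is known as a repressor of cell cycle genes in animals. In C. elegans the pocket protein is LIN-35, the heterodimer is EFL-1 with DPL-1, and the core holds LIN-9, LIN-37, LIN-52, LIN-53 and LIN-54. The worm genes are also known as class B synthetic multivulva (synMuv B) genes, which restrain vulval fates and keep germline genes off in the soma.

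The members of the complex with IDR peaks all encode MuvB subunits, as do most of the 8 genes, and the MuvB gene lin-37 had none. IDR summits lay at 4 of the 8 genes, lin-54, lin-53, lin-9 and lin-52, whereas lin-37, lin-35, efl-1 and dpl-1 had weaker candidate summits only. Among all protein-coding genes, 2.98% had an IDR summit by the same rule. All 4 IDR summits were upstream of the gene and none was inside it. Within 500 bp of the 5' end the count was 3 of 8, without lin-52, against 1.72% of all protein-coding genes. Genes differ in length, and longer ones can hold more summits: with the upstream 1 kb, the median was 3507 bp for the 8 genes and 3026 bp for all.

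**Figure D1:**
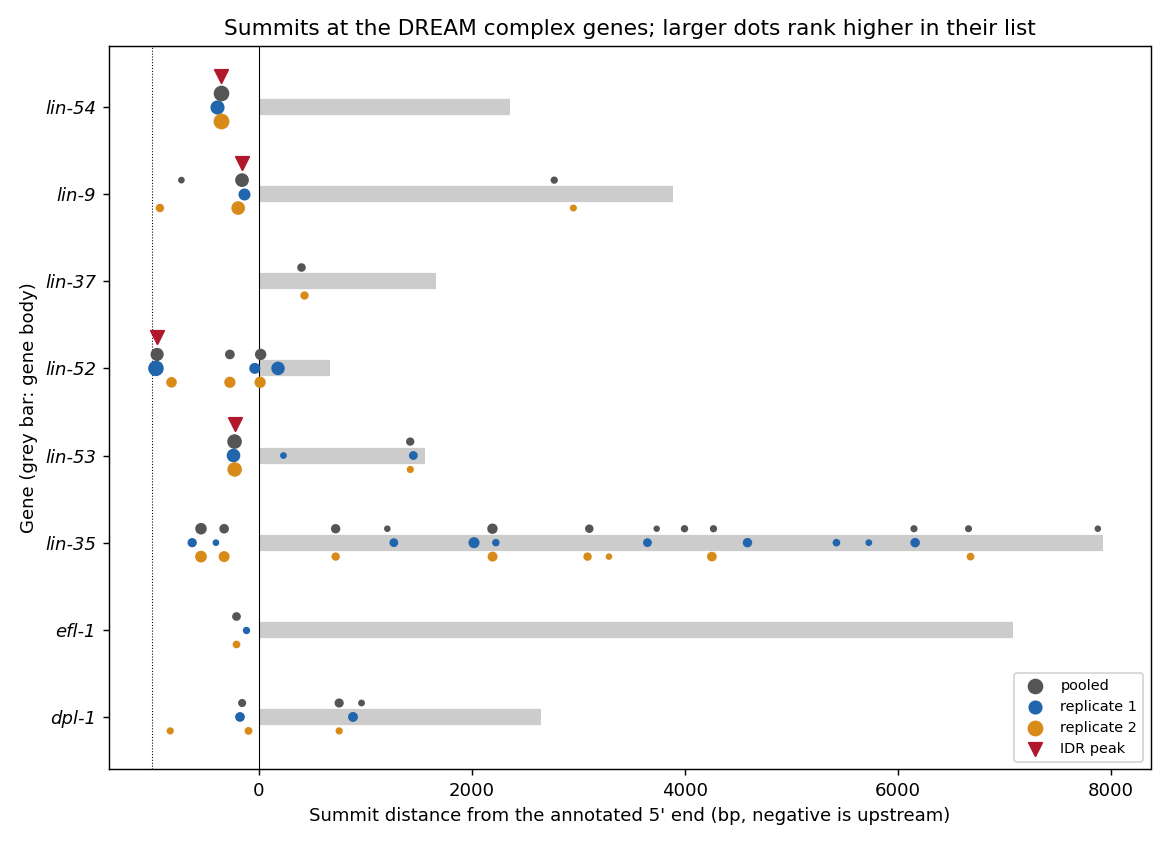
Summits at each DREAM complex gene by distance from the annotated 5' end in bp (horizontal axis), 1 row per gene, with the gene body in grey and the 1 kb limit dotted. Larger dots have a higher rank in their own list, and red triangles mark the 4 IDR peaks, which all lie to the left of the 5' end.

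LIN-54 is the subunit that contacts DNA through cysteine-rich domains. The gene lin-54 (WBGene00003037) lies on chromosome IV, 13241044 to 13243401, plus strand, in the ce11 build. Its IDR peak, chrIV:13240620-13240755, had a signal of 89.1 and rank 64 of the pooled list. The summit at 13240688 was intergenic, 356 bp upstream of lin-54. That summit was much closer to another gene: it lay 37 bp upstream of the 5' end of rpl-12, a diverging gene for a large-subunit ribosomal protein, and the 2 genes are 392 bp apart. The peak can therefore not be assigned to lin-54 rather than to rpl-12. In replicate 1 the region had a signal of 19.9 at rank 266, with its summit 391 bp upstream of lin-54 and 2 bp upstream of rpl-12. In replicate 2 it had a signal of 68.6 at rank 54, with the summit at the same base as the pooled one. These ranks placed it in the top 0.909% of the replicate 1 list and the top 0.18% of the replicate 2 list, against the top 0.213% of the pooled list. Only 1 summit was found for lin-54 in each list, so nothing was called in the gene body.

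LIN-53 is a histone-binding protein of the RbAp46/48 family and also belongs to other chromatin complexes such as NuRD and CAF-1. Its gene (WBGene00003036, chromosome I, 9618196 to 9619760, minus strand) had the IDR peak of next highest signal among the 8 genes, 58.6, at rank 175. The region, chrI:9619800-9620169, had its summit 225 bp upstream of lin-53 and 242 bp upstream of nra-2, which diverges from it. The summit was thus about midway between the 2 genes, which are 466 bp apart. In replicate 1 the signal was 17.0 at rank 416, and in replicate 2 it was 42.4 at rank 191. The summit was 235 bp upstream of lin-53 in replicate 1 and 224 bp upstream in replicate 2, which is almost the same place. A second candidate summit recurred near the 3' end of lin-53, in its 3' UTR, with pooled signal 9.93 at rank 13859. It was 229 bp upstream of rba-1, the neighbouring gene, which encodes a second RbAp46/48-family protein.

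LIN-9 is a core scaffold subunit, related to Drosophila Mip130. The gene lin-9 (WBGene00002998, chromosome III, 8900237 to 8904131, minus strand) had an IDR peak at chrIII:8904101-8904470 with a signal of 45.4 and rank 374. Its summit lay 155 bp upstream of lin-9, in intergenic sequence, with no other gene's 5' end within 1 kb. The next protein-coding gene upstream, unc-32, diverges and is 1483 bp away, with the ncRNA gene ZK637.19 between them. This was the only IDR peak of the 4 with no other gene that close. The region ranked 1482 in replicate 1 (signal 10.6), outside its 704 strongest regions, and 402 in replicate 2 (signal 33.0). The summits of the replicates were 136 and 191 bp upstream. The other pooled summits of lin-9 were weak: 1 in an intron at rank 21604 and 1 that was 724 bp upstream at rank 27333.

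LIN-52 is a small subunit whose human counterpart, in phosphorylated form, links MuvB to the pocket protein. The gene lin-52 (WBGene00003035) is the shortest of the 8, at 668 bp (chromosome III, 9824083 to 9824750, minus strand). Its IDR peak, chrIII:9825517-9825886, had a signal of 37.9 at rank 622. The lowest signal in the IDR list was 35.9, so this peak was near the end of that list. The summit was 952 bp upstream of lin-52, just inside the 1 kb limit, and another gene, ZK632.9 on the same strand, lies between them. The summit was 270 bp upstream of ZK632.9, whose 3' end is 126 bp from the 5' end of lin-52.

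The 2 replicates differed at lin-52. Replicate 1 placed a summit 963 bp upstream with signal 30.7 at rank 71, which was the highest replicate 1 rank at any of the 8 genes. In replicate 2 the nearest summit was 817 bp upstream, 135 bp from the IDR summit, with signal 14.4 at rank 4002. The strongest replicate 2 summit in this stretch lay past the 1 kb limit, 1512 bp upstream, with signal 32.4 at rank 429. The replicates therefore had no partner summits within 100 bp at this IDR peak. At the 5' end of lin-52 itself the pooled list had a weaker summit, 20 bp downstream of that end in a coding exon (signal 22.4, rank 2357). Replicate 2 had a summit 15 bp downstream (signal 17.4, rank 2456) and replicate 1 had its partner 35 bp upstream (signal 7.96, rank 3020). Replicate 1 also had a stronger summit inside lin-52, 183 bp downstream in a coding exon, with signal 16.3 at rank 460, and so among its 704 strongest regions. Just past the 1 kb limit of lin-52, the next pooled summit was 1438 bp upstream with signal 23.3.

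**Figure D2:**
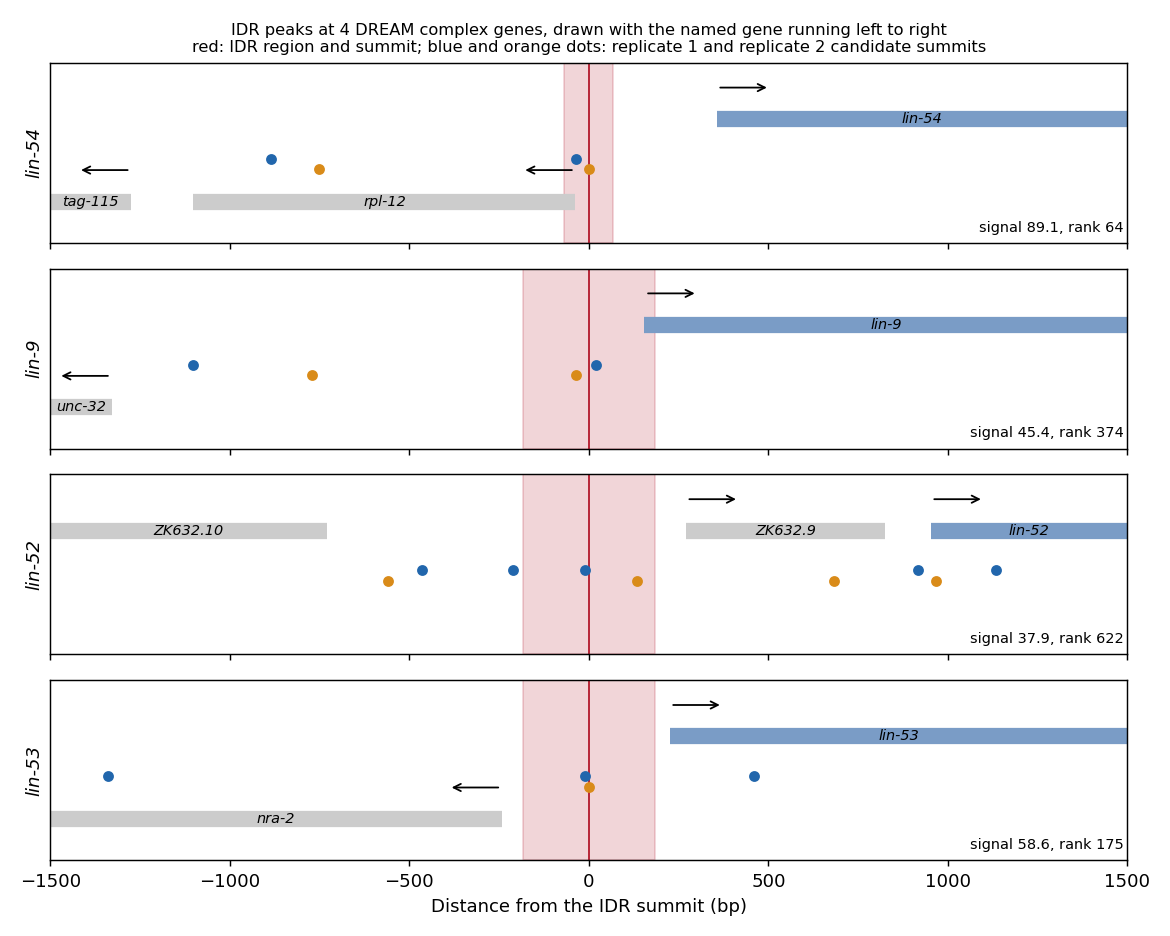
Gene models within 1500 bp of the IDR summits of lin-54, lin-9, lin-52 and lin-53 (distance from the summit in bp; genes above the middle run left to right, genes below run right to left). Red bands are IDR regions, and dots are replicate 1 (blue) and replicate 2 (orange) summits; at lin-54 the summit is 37 bp from rpl-12, and at lin-52 the gene ZK632.9 lies between the peak and lin-52.

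LIN-37, the remaining MuvB subunit, is required for repression by the complex in human and mouse cells. The gene lin-37 (WBGene00003022, chromosome III, 7070890 to 7072552, minus strand) had the lowest strongest pooled signal of the 8. Its single pooled summit was in an intron, 399 bp downstream of the 5' end, with signal 10.6 at rank 12171. Replicate 2 had 1 summit, 425 bp downstream (signal 8.17, rank 13614), and replicate 1 had none. The gene starts 60 bp from the 3' end of ZK418.5 on the same strand. No pooled summit lay within the 1 kb upstream, and the next one was 1368 bp upstream with signal 17.9.

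LIN-35 is the worm's retinoblastoma-family pocket protein. The gene lin-35 (WBGene00003020) is the longest of the 8, at 7929 bp (chromosome I, 5807709 to 5815637, plus strand), and held the most candidate summits, 12 in the pooled list, 10 in replicate 1 and 8 in replicate 2. None was an IDR peak. The strongest pooled summit was 540 bp upstream of lin-35, with signal 23.5 at rank 2096. It fell in an intron of the diverging gene vps-51, 122 bp downstream of that gene's 5' end. Replicate 2 had a summit at the same base (signal 19.8, rank 1756), and its partner in replicate 1 was 623 bp upstream (signal 4.92, rank 8558). The strongest lin-35 summit of replicate 1 was elsewhere, in an intron 2023 bp from the 5' end (signal 8.08, rank 2936). The pooled list had an intronic summit nearby, at 2196 bp (signal 17.1, rank 4475), 97 bp downstream of the 5' end of C32F10.4, a gene that runs antisense inside lin-35.

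EFL-1 and DPL-1 form the E2F-DP heterodimer that binds DNA. The gene efl-1 (WBGene00001161, chromosome V, 16958590 to 16965675, minus strand) had 1 summit in each candidate list, all upstream of the gene and all weak. The pooled summit was 215 bp upstream (signal 11.02, rank 11418). It is shared with the diverging gene fbxa-90, being 924 bp upstream of that gene. The replicate 1 summit was 115 bp upstream (signal 2.80, rank 20704) and that of replicate 2 was 212 bp upstream (signal 6.87, rank 18141). Although efl-1 is long, at 7086 bp, no list had a summit inside it. The gene dpl-1 (WBGene00001061, chromosome II, 9169910 to 9172565, plus strand) lies wholly inside T23G7.2, a gene on the other strand, so its 3 pooled summits were also inside that gene. The strongest was in an intron of dpl-1, 757 bp downstream of the 5' end (signal 12.4, rank 9149). The replicates had no partner summits there. Replicate 1 had a summit 887 bp downstream (rank 6042), and replicate 2 had a weak summit 757 bp downstream (rank 22095). The summit nearest to the 5' end was 154 bp upstream (signal 9.35, rank 15344). It lay between the partner summits of the replicates, 174 bp upstream in replicate 1 (rank 6534) and 94 bp upstream in replicate 2 (rank 17197).

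**Figure D3:**
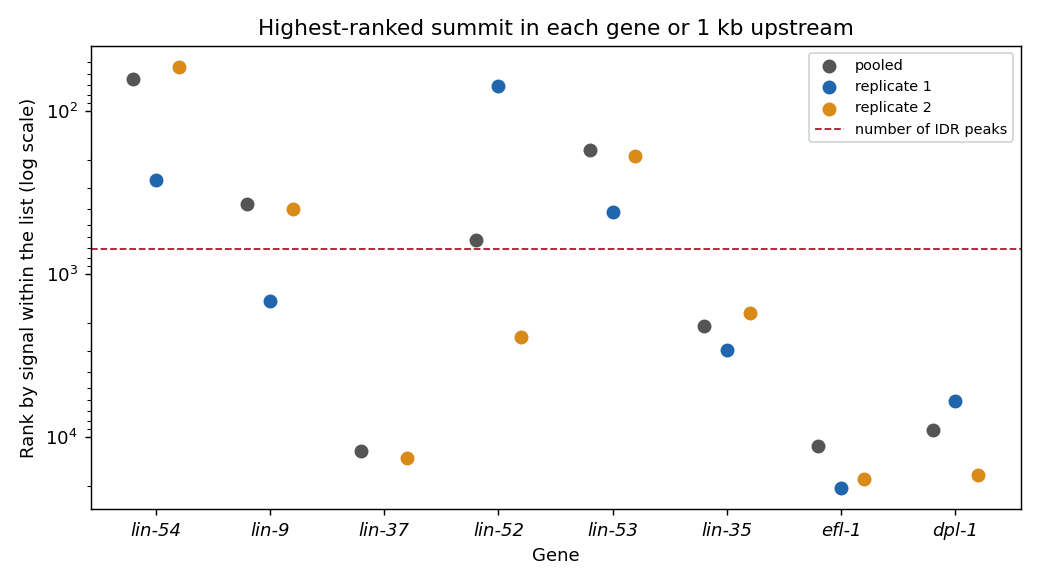
Rank of the highest-ranked summit at each gene in the pooled, replicate 1 and replicate 2 lists (vertical axis, log scale, higher ranks at the top); the dashed line marks rank 704, the length of the IDR list. Among these 8 genes, lin-54 and lin-53 are above the line in all 3 lists, lin-9 is below it in replicate 1, lin-52 is below it in replicate 2, and lin-37 has no replicate 1 point.

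Set in order of their strongest pooled signal, the genes ran lin-54, lin-53, lin-9, lin-52, lin-35, dpl-1, efl-1 and lin-37. A strongest summit at least as high as that of lin-54 was found at 0.26% of all protein-coding genes. The corresponding shares were 0.751% for lin-53, 1.68% for lin-9, 2.69% for lin-52 and 7.69% for lin-35. For dpl-1, efl-1 and lin-37 they were 22.8%, 26.3% and 27.4% in turn. The order of lin-54, lin-53 and lin-9 was the same in both replicates, as was that of dpl-1 and efl-1. The place of lin-52 changed between replicates. Its strongest summit, at rank 71 in replicate 1, was above those of lin-54 (266) and lin-53 (416) and also above those of lin-9 and lin-35. In replicate 2, at rank 2456, it was below all 4 of these genes. The place of lin-52 among them can therefore not be set. The strongest summits of replicate 1 and replicate 2 were also at different sites at lin-52 and lin-35. They were 963 bp upstream and 15 bp downstream at lin-52, and 2023 bp downstream and 540 bp upstream at lin-35. The order by strongest summit therefore compares different sites at these 2 genes. At the replicate summits nearest the IDR peaks, the order of lin-9 and lin-52 changed as well. There lin-52 ranked 71 in replicate 1 and 4002 in replicate 2, and lin-9 ranked 1482 and 402. The place of lin-37 changed too: it had no summit in replicate 1 and ranked above dpl-1 and efl-1 in replicate 2. The median strongest pooled signal was 30.7 over the 8 genes and 12.3 over all protein-coding genes with a summit.

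Candidate summits as such were common at the 8 genes. Every one of them had a pooled candidate summit, against 45.7% of protein-coding genes, and 8 of 8 had one in replicate 2, against 47.4%. In replicate 1 it was 7 of 8, against 53.1%. Partner summits, reciprocally nearest and within 100 bp in the 2 replicates, were present at 7 of 8, against 18.2%. The exception was lin-37. Of the 26 pooled summits, 10 were upstream and 16 inside the genes, of which 9 were in introns, 5 in coding exons and 2 in 3' UTRs. Their density was 0.726 per kb of gene and upstream sequence, against 0.305 per kb over all protein-coding genes. The gene lin-35 alone held 12 of the 26 summits. By gene the density ran from 0.124 per kb at efl-1 to 1.80 per kb at lin-52. At lin-54 it was 0.298 per kb, so lin-54 and efl-1 were below the value over all genes.

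Each replicate alone gave 3 of the 8 genes. Among the 704 strongest regions of replicate 1, summits lay at lin-54, lin-52 and lin-53, against 2.66% of protein-coding genes. Among the 704 strongest of replicate 2 they lay at lin-54, lin-9 and lin-53, against 3% of protein-coding genes. The genes that both replicates placed among their strongest regions were thus lin-54 and lin-53. Both of these peaks lie between diverging genes, as does that of lin-9.

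The sequences at the summits are shown so that the words discussed next can be seen in place. They are read 5' to 3' on the strand of the named gene from the RefSeq WBcel235 genome, within 149 bp of the summit and trimmed at the end of any annotated gene. Their positions are chrIV:13240652-13240837 on the plus strand, and chrIII:8904137-8904435, chrIII:9825553-9825851 and chrV:16965741-16966039 on the minus strand. The first 3 hold IDR peaks, with the summit at base 37 for lin-54 and base 150 for the others, and efl-1 is shown as a gene of the complex without one. Capitals mark matches, on either strand, to the words TTTGAA, the variant TTCGAA, the pair TTCCCGC with its overlapping counterpart GGCGGGA, or the word GACGCA.
lin-54: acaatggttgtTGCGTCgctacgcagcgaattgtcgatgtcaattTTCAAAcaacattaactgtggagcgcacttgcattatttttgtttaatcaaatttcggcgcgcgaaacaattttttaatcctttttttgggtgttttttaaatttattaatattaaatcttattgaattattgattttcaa
lin-9: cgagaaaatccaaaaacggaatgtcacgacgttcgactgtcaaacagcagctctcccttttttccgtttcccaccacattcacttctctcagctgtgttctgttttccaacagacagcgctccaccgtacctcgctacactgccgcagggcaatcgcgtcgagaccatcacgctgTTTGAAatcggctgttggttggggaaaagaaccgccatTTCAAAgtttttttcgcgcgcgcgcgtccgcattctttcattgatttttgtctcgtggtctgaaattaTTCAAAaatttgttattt
lin-52: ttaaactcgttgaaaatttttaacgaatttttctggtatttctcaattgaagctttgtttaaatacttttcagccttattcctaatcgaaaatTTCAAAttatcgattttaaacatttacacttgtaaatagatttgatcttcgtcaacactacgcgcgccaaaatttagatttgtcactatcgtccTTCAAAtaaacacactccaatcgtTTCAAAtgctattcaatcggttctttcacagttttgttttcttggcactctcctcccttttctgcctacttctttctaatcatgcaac
efl-1: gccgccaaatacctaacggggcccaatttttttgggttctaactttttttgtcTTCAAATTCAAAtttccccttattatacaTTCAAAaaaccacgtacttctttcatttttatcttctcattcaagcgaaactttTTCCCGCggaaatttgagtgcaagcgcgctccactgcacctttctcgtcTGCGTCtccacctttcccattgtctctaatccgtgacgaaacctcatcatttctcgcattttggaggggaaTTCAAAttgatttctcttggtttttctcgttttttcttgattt

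TTTGAA is the core of the cell cycle genes homology region, the element that LIN-54 contacts in human promoters, and TTCGAA is a variant of it. The words TTCCCGC and, on the opposite strand, GGCGGGA cover overlapping parts of the E2F element. GACGCA was taken because an earlier look at all summits in these data had picked it out. It was not the most frequent of these words at IDR or pooled summits. Within 150 bp of the summit, TTTGAA was present at 4 of the 4 IDR peaks, as it was in 46.7% of windows of this length at IDR summits and 61.6% at pooled summits. Within 50 bp it was also present at 4 of 4, against 16.3% and 28.8% of windows, which were not matched for base composition. The nearest match was centred 11.5 bp from the summit at lin-54, 28.5 bp at lin-9, 40.5 bp at lin-52 and 42.5 bp at lin-53. Over all 8 genes, with the strongest pooled summit used where there was no IDR peak, 6 of 8 windows of 150 bp either side held it. This stands beside the 61.6% of windows at pooled summits. Within 50 bp, 4 of 8 held it, those with IDR peaks, beside 28.8% at pooled summits. At efl-1, which had no IDR peak, there were 4 matches, the nearest 64.5 bp from the summit. The other genes without an IDR peak held fewer words than efl-1. Within 150 bp, lin-37 had 1 match to TTTGAA, 117.5 bp from its summit, and lin-35 and dpl-1 had no match to any of the words.

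Of the E2F words, TTCCCGC was present within 150 bp at 2 of the 8 summits, 85 bp from the summit at lin-53 and 10 bp from it at efl-1. It was present in 4.12% of windows at IDR summits and 3.21% at pooled summits. GGCGGGA and TTCGAA were found at none of the 8 summits, where 3.55% and 17.5% of windows at IDR summits hold them. GACGCA was present at lin-54, centred 22.5 bp from the summit, and at efl-1, 38.5 bp from it, against 25.9% of windows at IDR summits and 8.62% at pooled summits. Of the 4 IDR peaks at the complex's genes, 1 held this word, that of lin-54, which is close to the share of windows at IDR summits. The printed lin-54 stretch was 30.6% G or C, that of lin-52 32.4% and that of lin-9 47.2%. A match of letters does not show that a factor is bound there.

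The 3 IDR peaks most like that of lin-54 in their ranks over the 3 candidate lists had summits more than 1 kb from the nearest coding gene 5' end. Likeness was the Euclidean distance of log2 ranks, among the 593 IDR peaks with partners in both replicates. The closest, at a distance of 0.306, had ranks 68, 325 and 56 in the pooled, replicate 1 and replicate 2 lists. Its summit was 5651 bp downstream of the 5' end of pxn-1. The next was on X, 2644 bp past the start of Y41G9A.17 (ranks 63, 199 and 50). The last of the 3 was 1370 bp upstream of W09D10.4 (ranks 86, 334 and 67).

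Genes that work with the complex, and genes it is known to regulate, were described in 8 lists with 88 different genes. IDR summits lay at 6 of them, or 6.82%, against the 2.98% of all protein-coding genes given above. The other synMuv B genes, which include the heterochromatin gene hpl-2 and the methyltransferase gene met-2, had 0 of 14. The highest pooled rank among them was 950, at lin-36 (signal 31.9), a gene named after its value was seen. The genes for other subunits of the NuRD and CAF-1 complexes and for the LIN-53 relative RBA-1, some of them also in the synMuv B list, had 0 of 9, although all 9 had a pooled candidate summit. Their highest rank was 1090, at dcp-66, likewise named after its value was seen.

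The synMuv A genes had 1 of 4, lin-56, with the summit in its 5' UTR 441 bp from the 5' end (signal 48.3, rank 304). The TIP60 complex genes, known as synMuv C, had 1 of 4, epc-1, an Enhancer of Polycomb homologue (signal 68.1, rank 120, summit 180 bp upstream). The genes Y111B2A.12 and Y111B2A.34 share the epc-1 summit. Among the 12 regulators of the G1/S transition and other E2F genes, 1 had an IDR summit, the cyclin E gene cye-1, in an intron 983 bp from the 5' end (signal 48.1, rank 310). The gene WBGene00022955 shares the cye-1 summit. These 3 peaks were among the 704 strongest regions of both replicates: they ranked 368, 579 and 562 in replicate 1, and 382, 101 and 244 in replicate 2.

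Of 16 S phase genes, 2 had IDR summits. They were rfc-4, a replication factor C subunit gene (signal 49.2, summit 165 bp upstream), and pcn-1, which encodes the sliding clamp PCNA (signal 37.0, summit 247 bp upstream). The peak of rfc-4 is also near the 5' end of eef-1A.1, a translation elongation factor gene. Of 16 mitotic genes, 1 had an IDR summit, the spindle checkpoint gene mdf-1 (signal 38.3, summit 267 bp upstream, near the histone gene his-35). These 3 peaks ranked low in replicate 1, at 1267, 11143 and 5220, and higher in replicate 2, at 229, 543 and 463. With the strongest regions of replicate 1 alone, the counts were 0 of 16 for S phase genes, 0 of 16 for mitotic genes, 2 of 12 for G1/S regulators and E2F genes, and 1 of 9 for NuRD and CAF-1 genes. Germline and meiotic genes, a class that loss of lin-35 is known to turn on in the soma, had 0 of 16, and their highest pooled rank was 5512, at spo-11, named after its value was seen.

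**Figure D4:**
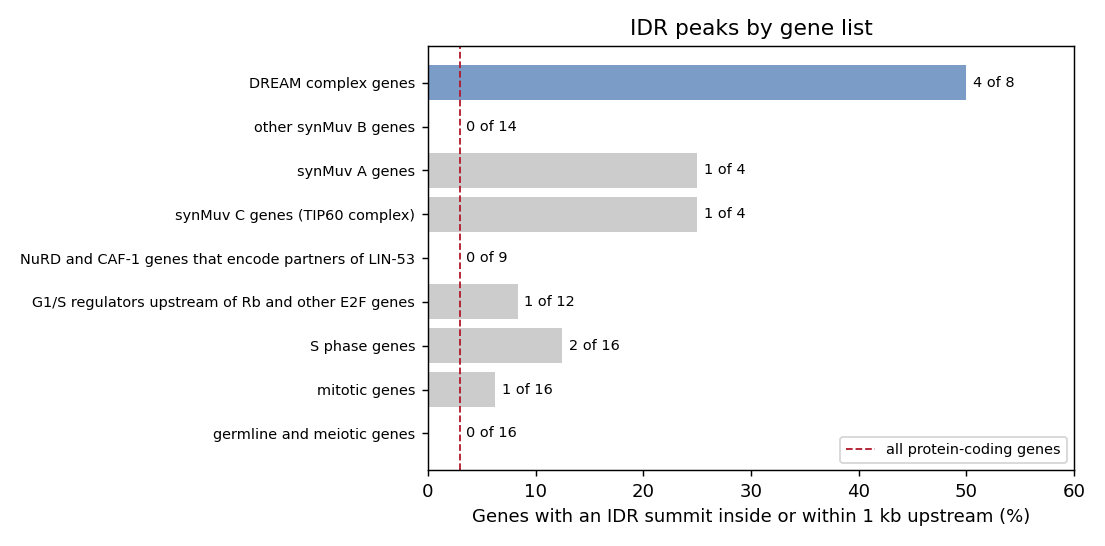
Share of genes with an IDR summit inside or within 1 kb upstream, in percent, for the 8 DREAM complex genes (blue) and 8 related lists (grey), with counts beside the bars; the dashed line is the 2.98% of all protein-coding genes. The DREAM genes were chosen with the lin-54 peak known, and lists of 4 to 16 genes move by large steps with each gene.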

How the data were processed

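Peak lists in narrowPeak form were used, from 1 group of 2 biological replicates of L3 larvae; fragments of 150 to 350 bp were selected, per the labels. Per the inventory text deposited with the samples, the authors called 1 candidate list on each replicate and 1 on both, each against a control, and made the IDR list from these. The caller, aligner, IDR threshold and control strain are not given in the sources used here. The signal of each region is the authors' own value as deposited; its scaling is not given, and signals were ranked within lists only. The deposited −log10 q-values have a ceiling (3.15 in the pooled list, shared by 2113 regions) and were not used for ranking. Lists in the ce10 build were not used. No region extended past a chromosome end of the reference.

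Gene models were those of Ensembl release 115 (WBcel235, the ce11 assembly), with gene extent and 5' end taken over all transcripts. Because many worm transcripts are trans-spliced, transcription may start upstream of an annotated 5' end. Coordinates are 1-based; a summit is the region's start plus the deposited offset. Other genes were said to share a summit if it lay inside them or within 1 kb of their 5' end. Partners were reciprocally nearest summits within 100 bp. Words were searched on both strands within 150 bp of summits. All genes of the complex and of the 8 related lists were matched by symbol. The members and lists were chosen with earlier results of these data known, so no test was made; after values were seen, mcd-1 was moved to the synMuv B list and lin-66 left out for their annotated roles, and neither had an IDR summit, though lin-66 had a summit among the strongest regions of replicate 1. Named were the members, genes that share their summits, up to 4 genes with an IDR summit per list by signal, and the 3 IDR peaks most like that of lin-54. Assignment and partner matching were tested on simulated data. Alternatives were 500 bp, 2 kb or no upstream stretch, any overlap of the region, the stronger 352 IDR peaks, each replicate alone, partners within 50 bp or by 50% reciprocal overlap, nuclear chromosomes alone and 50 bp around summits. Python 3.11.15, numpy 2.4.6, pandas 2.3.3 and matplotlib 3.10.9 were used.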

Additional observations from a re-analysis of the deposited data

How the results depend on the processing

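Of 72 alternative values, 59 stayed within 1.5 times the reported count or within the spread between replicates, and 13 moved further. With the upstream 1 kb left out, the count of complex genes with an IDR summit was 0 of 8 and that with partner summits was 2 of 8, by construction, since summits upstream no longer count. With the stronger 352 IDR peaks, 2 of 8 genes had one (lin-54 and lin-53), and with partners required within 50 bp, 4 of 8 genes had them. The shares of all protein-coding genes at these settings were not taken, so these counts have no background beside them. In each replicate alone, 3 of 8 genes had a summit among the strongest 704 regions, and between 7 and 8 had any candidate summit. The lin-54 peak was in the top 0.18% to 0.909% of a single replicate's list and, on nuclear chromosomes alone, in the top 0.13% (rank 39). For the related lists as a whole the count stayed between 4 and 8 of 88; with 2 kb upstream, 2 of 9 NuRD and CAF-1 genes had an IDR summit against 0 as reported. No paired analysis was possible because there was 1 group. Depth is unknown, and weak regions near the end of a list may be absent from the other replicate's list for that reason alone.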
